A study of Mus musculus with 8 samples.

Results

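The KLF (Krüppel-like factor) genes encode transcription factors with C2H2 zinc fingers at the C-terminal end, which bind GC boxes and CACCC boxes in DNA. The 10 genes described here are Klf2, Klf3, Klf4, Klf5, Klf6, Klf7, Klf10, Klf11, Klf13 and Klf15. Their probes were found through the RefSeq accession that the scanner files give for each spot. Each gene had 1 probe in 1 spot, all 10 probes were well above background on all 8 arrays, and the 10 genes were among 14739 genes tested.

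RNA of inguinal white adipose tissue, a subcutaneous depot at the hind limb, was hybridised to 8 Agilent arrays with 1 colour channel, 1 labelled sample on each. The 4 control samples came from mice with the genotype Senp2flox/flox, in which loxP sites flank part of Senp2. The 4 Senp2-aKO samples came from Senp2flox/flox; Adipoq Cre mice, in which the adiponectin promoter drives the recombinase in adipocytes and leaves Senp2 intact in the other cells of the tissue. Every mouse began a diet with 58 kcal% fat at an age of 8 weeks, ate it for 12 weeks and was kept at 22 to 24 °C. The SENP2 protease strips SUMO, a small protein tag, off its targets, and the series asks whether its loss in adipocytes shifts white fat towards a heat-producing state through C/EBPβ. The labels do not say that each sample is 1 mouse, so p-values measure the spread between these samples.

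KLF factors act at successive steps of fat cell formation. Klf4 is known to switch on Cebpb early, Klf5 is switched on by C/EBPβ and C/EBPδ and in turn activates Pparg, and Klf6, Klf13 and Klf15 favour the process at later or parallel steps. Klf2, Klf3 and Klf7 are known as brakes on it, Klf3 through the corepressor CtBP. Klf10 and Klf11 are induced by TGF-β and recruit the corepressor Sin3a. Klf15 also controls amino acid breakdown and glucose uptake in fat and muscle, and Klf2, Klf4, Klf6 and Klf10 respond within minutes to hours to many stimuli.

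Levels below are log2 signals relative to the 75th percentile of the array, so that a value of 0 equals that percentile, and they compare arrays for 1 gene and not 1 gene with another. Signals at the 75th percentile ranged from 408 to 446 in controls and from 324 to 382 in Senp2-aKO samples, and 0 spots were saturated. All arrays lay on 1 slide, the controls in row 1 and the Senp2-aKO arrays in row 2, so that row and group cannot be told apart. Senp2 had levels of 2.46, 2.46, 2.52 and 2.37 in controls and of 2.19, 2.12, 2.20 and 2.22 in Senp2-aKO samples, with all of the latter lower (log2 fold change -0.27, SE 0.08, limma adjusted p = 0.0507, under 0.05 with 7 of 19 other settings). Adipocyte markers fixed for the check were tested for 10 of 10 genes, with means of 7.59 to 7.90 in controls and 7.53 to 7.97 in Senp2-aKO samples. Of these, the lipase gene Pnpla2 rose (log2 fold change 0.52) and the leptin gene Lep fell by 1.85 on the log2 scale. Skeletal muscle markers stood apart, with means of -2.04 to 1.18 in controls and 2.75 to 4.29 in Senp2-aKO samples. Of these, 18 of 18 were tested and 15 rose, against 7.3% of all genes. B lymphocyte markers were at 1.44 on Senp2-aKO 2 and between -3.09 and -0.75 on the other arrays.

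The promoters of Klf4, Klf6 and Klf15 are shown because Klf4 and Klf6 varied most alike between arrays of the same group, and Klf4 and Klf15 least alike. They are the 250 bases before a transcription start in RefSeq's table for GRCm38.p6, which for Klf15 lies inside the span of the gene given below, at chr4:55532476-55532725 (minus strand), chr13:5861239-5861488 (plus) and chr6:90462326-90462575 (plus). Capitals mark 3 words on either strand: the CCAAT box, the GC box core GGGCGG, and the E-box CACGTG.
Klf4: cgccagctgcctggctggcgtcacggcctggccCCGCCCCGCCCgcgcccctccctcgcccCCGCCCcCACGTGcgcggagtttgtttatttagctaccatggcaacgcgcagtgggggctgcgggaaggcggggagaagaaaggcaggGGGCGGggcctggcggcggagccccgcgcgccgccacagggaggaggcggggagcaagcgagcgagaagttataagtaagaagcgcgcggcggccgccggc
Klf6: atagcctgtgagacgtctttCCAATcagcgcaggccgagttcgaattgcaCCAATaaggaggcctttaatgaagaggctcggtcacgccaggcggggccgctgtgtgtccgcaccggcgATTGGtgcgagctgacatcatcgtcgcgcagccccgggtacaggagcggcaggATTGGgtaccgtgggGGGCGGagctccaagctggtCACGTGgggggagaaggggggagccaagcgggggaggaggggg
Klf15: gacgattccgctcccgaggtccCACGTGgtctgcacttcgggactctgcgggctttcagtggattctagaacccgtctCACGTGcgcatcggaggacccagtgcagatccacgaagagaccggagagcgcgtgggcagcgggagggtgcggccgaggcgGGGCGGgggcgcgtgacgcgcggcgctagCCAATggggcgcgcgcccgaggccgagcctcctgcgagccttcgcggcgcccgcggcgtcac

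In these windows Klf6 held CCAAT 4 times, a number that 0.84% of 32851 RefSeq promoters reached, while Klf15 held it 1 time and Klf4 0 times. Klf15 held CACGTG 2 times, a number that 0.429% of promoters reached, and Klf4 and Klf6 held it 1 time each. The word CACGTG was added to the search after the sequences had been read. Klf4 held GGGCGG 4 times, overlapping matches counted, a number that 4.09% of promoters reached. Of the 8 KLF promoters in the table (Klf5 and Klf10 are not among them), 8 held GGGCGG at least 1 time, against 32.7% of all promoters. CACCC was in 5 of the 8 (52% of all), CCAAT in 4 (33.8%) and CACGTG in 4 (6.02%). The words TGACGTCA and TTGCNNAA, searched on both strands like the others, were in 0 of the 8 (1.55% and 9.56% of all). The windows of Klf4, Klf6 and Klf15 held 74%, 64.8% and 72% G or C, and the shares over all promoters were not matched for base composition. A match describes the letters of these windows and was not tied to any level below.

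Of the 10 KLF genes, 1 rose in Senp2-aKO fat, 0 fell and 9 did not pass the limma test at a Benjamini-Hochberg adjusted p under 0.05, where 14.4% of all genes passed, 7.3% rising and 7.12% falling. Adjusted over all probes, Klf5 was again the 1 of 10 (adjusted p = 0.0196), against 9.84% of probes. The gene that rose was Klf5, by 1.88-fold. The next 2 by size were Klf15, at 1.77-fold, and Klf6, at 1.38-fold lower, which did not pass. In log2 fold changes, Senp2-aKO minus control, the 10 genes ran from -0.47 to 0.91, with 8 above and 2 below 0. Over all genes tested, 6969 of 14739 were above 0. The number of KLF genes above 0 was 6 under normexp, 7 with array weights, and 5 and 6 with the muscle or epithelial marker mean as a covariate. Their median was 0.18, against -0.02 over all genes tested, and their median size without sign was 0.22, against 0.24. At an unadjusted p under 0.05 there were 3 of the 10, where 32.3% of all genes were. The groups did not overlap for 1 of the 10, Klf5, against 26.3% of all genes, so that neither share stood above the background.

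**Figure D1:**
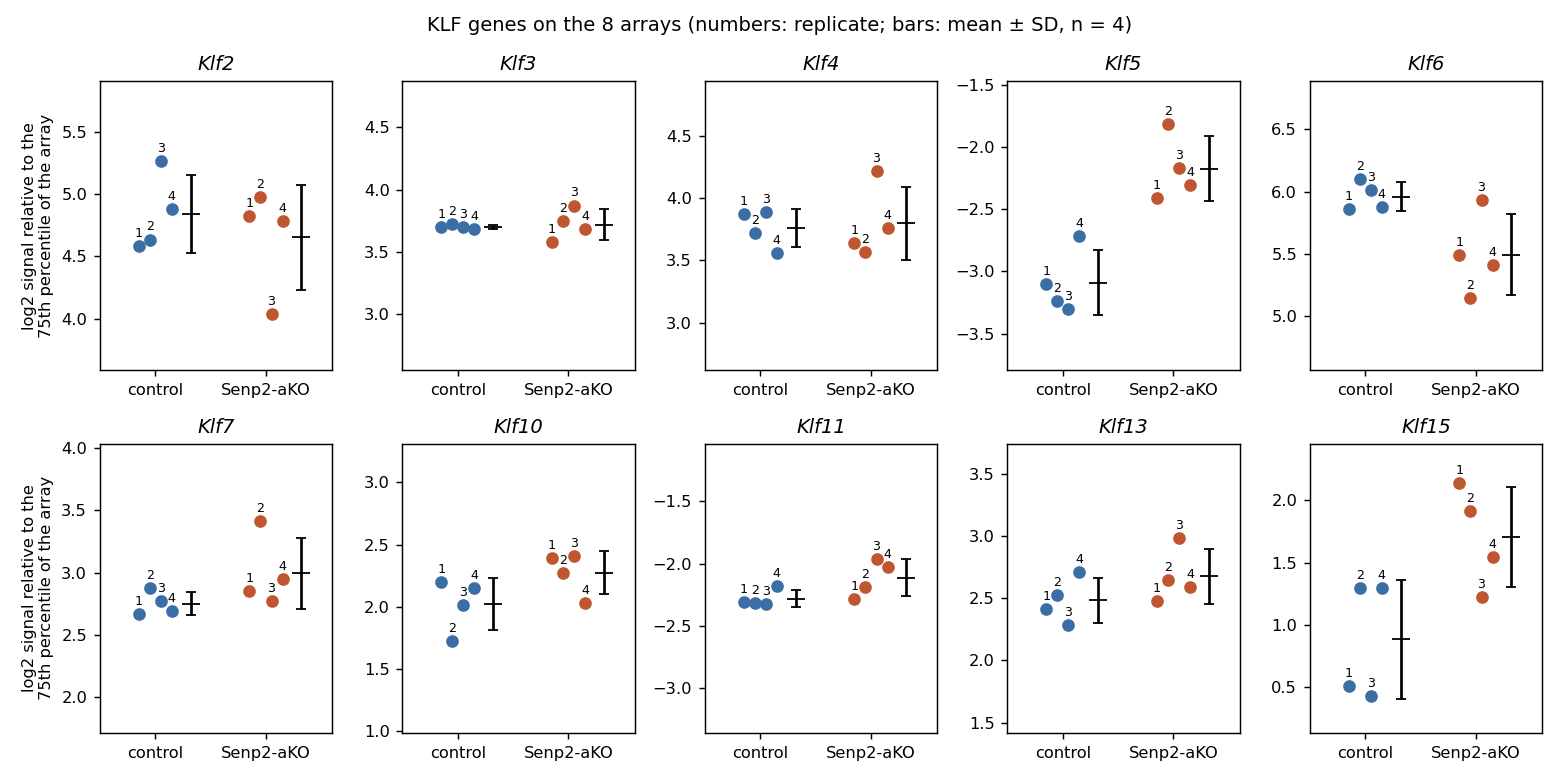
Log2 signal of the 10 KLF genes relative to the 75th percentile of the array, for 4 control (blue) and 4 Senp2-aKO (orange) arrays with their replicate numbers; bars are mean ± SD and each panel spans the same log2 range. The groups are apart for Klf5 and overlap for the other 9, with Senp2-aKO 3 lowest of all arrays for Klf2 and highest for Klf3, Klf4, Klf10, Klf11 and Klf13.

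Klf5, the activator of Pparg that C/EBPβ and C/EBPδ switch on, is at chr14:99298691-99313412 (GRCm38.p6). Its levels were -3.10, -3.24, -3.30 and -2.72 in controls 1 to 4 and -2.41, -1.82, -2.17 and -2.31 in Senp2-aKO samples 1 to 4. Control 4 was the highest control and Senp2-aKO 1 the lowest knockout sample, and the gap between them was smaller than the range within either group. The log2 fold change was 0.91 (SE 0.17, limma adjusted p = 0.0152, n = 4 per group), or 1.88-fold with a 95% interval of 1.43 to 2.48. An exact two-sided permutation test over the arrays gave p = 0.0286, the smallest that 4 against 4 allows. Any gene whose groups are apart reaches that p, and the groups of 26.3% of all genes were apart. Klf5 was dim, with processed signals of 43.5 to 62.5 in controls and 61.0 to 102 in Senp2-aKO samples. With the normexp background model, whose offset pulls dim probes together, the log2 fold change was 0.55 (adjusted p = 0.0106). Without control 1 the call ended by a small margin (0.91, adjusted p = 0.0509), while it held without any other single array, Senp2-aKO 2 included (0.79, adjusted p = 0.0186). Adjusted over all probes, it ended without control 1, control 2 or control 3.

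Klf5 is also abundant in epithelia, and epithelial transcripts moved on the same arrays. Of 11 markers of mammary epithelium 4 were tested and 3 rose, against 7.3% of all genes. Those that rose were Krt5, Krt14 and Krt19 (log2 fold changes 1.37, 0.90 and 1.01), while Krt18 did not pass (2.81, SE 0.91, limma adjusted p = 0.0738). Their mean ranged from -3.44 to -3.18 in controls and from -2.80 to -1.29 in Senp2-aKO samples, and the milk protein genes Csn2 and Wap were above background on 0 arrays. Epcam and Cdh1, the defining surface markers, were above background on 1 array each. Senp2-aKO 2 was highest for both Klf5 and the epithelial mean, whereas Senp2-aKO 4 was lowest of the knockout samples for the epithelial mean at -2.80 but not for Klf5. With that mean as a covariate, chosen after seeing the data, the Klf5 log2 fold change was 0.63 (limma adjusted p = 0.506). In that fit 0 of all genes passed, and the unadjusted p was under 0.05 for 1091 genes above and 758 below 0. With the muscle mean as a covariate it was 0.73 (adjusted p = 0.501), where 1 of all genes passed; the calls reported below also ended in both fits for each gene list. Because both means differ between the groups without overlap, such a fit cannot part them from genotype. In bulk tissue, more cells of a type and more RNA per cell cannot be told apart.

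**Figure D2:**
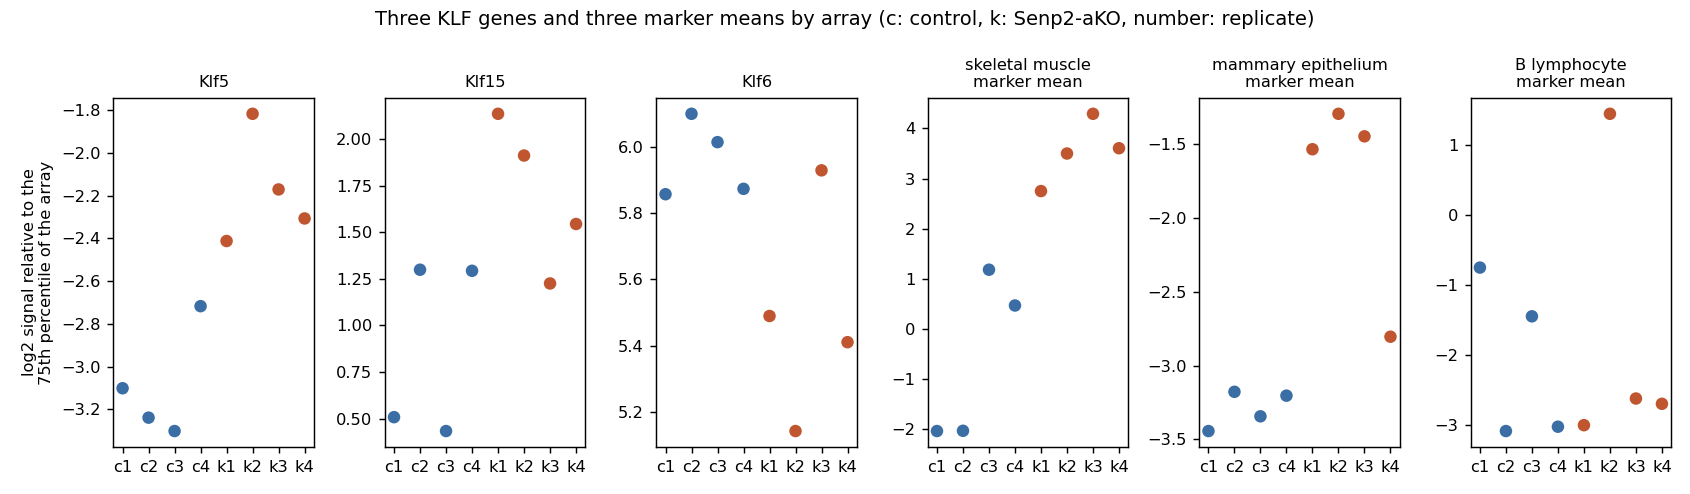
Log2 signal of Klf5, Klf15 and Klf6 and mean log2 signal of 3 marker lists on each array, relative to the 75th percentile of the array; c marks control and k Senp2-aKO arrays, and each panel has its own scale. Klf5 and the muscle and epithelial means exceed every control on each of the 4 Senp2-aKO arrays, and the B lymphocyte mean is high on Senp2-aKO 2.

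Klf15, which promotes the glucose transporter gene Slc2a4 and amino acid breakdown, is at chr6:90461043-90491803. Its control levels were 0.51, 1.30, 0.43 and 1.29, and its Senp2-aKO levels were 2.14, 1.91, 1.23 and 1.54. Controls 2 and 4 lay above Senp2-aKO 3, so the groups overlapped by 1 knockout sample. The log2 fold change of 0.82 (SE 0.28, 95% interval 0.19 to 1.46) did not pass the limma test (adjusted p = 0.0835, n = 4 per group, exact permutation p = 0.0857). It passed under 0 of 19 other settings, with adjusted p from 0.0543 to 0.791 and a log2 fold change from 0.44 to 1.31, the highest with the muscle mean as a covariate. Klf15 is a known transcript of muscle, and the part of muscle RNA in its values was not tested. Muscle marker means were -2.04, -2.04, 1.18 and 0.47 in controls 1 to 4. In Senp2-aKO samples 1 to 4 they were 2.75, 3.50, 4.29 and 3.60.

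Klf6, an immediate early factor that is known to repress Dlk1, is at chr13:5861489-5870393. Control levels were 5.86, 6.10, 6.01 and 5.87, and Senp2-aKO levels were 5.49, 5.14, 5.93 and 5.41. Knockout samples 1, 2 and 4 lay below all controls, and Senp2-aKO 3 lay among them. The log2 fold change of -0.47 (SE 0.16, 95% interval -0.84 to -0.09) did not pass (limma adjusted p = 0.0925, n = 4 per group, exact permutation p = 0.0857). It did pass without Senp2-aKO 3 (-0.61, adjusted p = 0.0191), under quantile normalisation (-0.57, adjusted p = 0.0486) and with array weights (-0.42, adjusted p = 0.0444). Among all arrays Senp2-aKO 2, the array with B lymphocyte markers at 1.44, had the lowest Klf6 level. Without that array the log2 fold change was -0.35 (adjusted p = 0.123). A fit of all arrays that included the B lymphocyte covariate gave -0.44 (adjusted p = 0.0637). The part of lymphocyte RNA in the Klf6 levels was not tested in another way.

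Klf4, which acts ahead of Cebpb, gave 3.87, 3.72, 3.89 and 3.56 in controls and 3.64, 3.57, 4.22 and 3.76 in Senp2-aKO samples. Only Senp2-aKO 3 lay outside the control range, above it. Its log2 fold change was 0.04 (95% interval -0.33 to 0.40, limma adjusted p = 0.900), and the sign turned under 4 of 19 settings, among them normexp and omission of Senp2-aKO 3 (-0.10). Klf13, at 2.41, 2.52, 2.28 and 2.71 in controls and 2.48, 2.65, 2.99 and 2.59 in Senp2-aKO samples, had a log2 fold change of 0.19 (95% interval -0.13 to 0.52, adjusted p = 0.379). Again the highest array was Senp2-aKO 3.

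Among the brakes on fat cell formation, Klf2, which represses Pparg and also keeps endothelium and resting T cells quiescent, had levels of 4.58, 4.63, 5.26 and 4.88 in controls. Senp2-aKO samples gave 4.82, 4.97, 4.03 and 4.78. Here 3 knockout samples lay within the control range and Senp2-aKO 3 lay below it. The log2 fold change of -0.19 (95% interval -0.73 to 0.35, limma adjusted p = 0.619) was 0.02 without Senp2-aKO 3. Endothelial markers overlapped between groups (means 2.79 to 3.07 in controls and 2.52 to 3.14 in Senp2-aKO samples, 0 of 10 called in limma, 1 lower at an unadjusted p under 0.05).

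Klf3, which recruits CtBP and is known to repress Cebpa, was the steadiest of the 10 in controls, at 3.70, 3.72, 3.70 and 3.69 (SD 0.01). Senp2-aKO samples spread wider, at 3.58, 3.75, 3.87 and 3.68 (SD 0.12), around the same mean. Its log2 fold change was 0.02 with a 95% interval of -0.18 to 0.22 (limma adjusted p = 0.911), and the sign turned under 5 of 19 settings, normexp and omission of Senp2-aKO 3 included. Klf7 had levels of 2.66, 2.88, 2.77 and 2.69 in controls and 2.85, 3.41, 2.77 and 2.94 in Senp2-aKO samples (log2 fold change 0.24, 95% interval -0.09 to 0.58, adjusted p = 0.285). Its highest value was on Senp2-aKO 2, where B and T lymphocyte marker means were 1.44 and 2.01 and the highest of all arrays. Without that array the Klf7 log2 fold change was 0.11. Adding the B lymphocyte covariate to the fit of all arrays gave 0.21 (limma adjusted p = 0.217). The part of T lymphocyte RNA in the Klf7 levels was not tested.

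Klf10 and Klf11, the factors induced by TGF-β, did not pass either. Klf10 levels were 2.20, 1.73, 2.02 and 2.15 in controls and 2.39, 2.27, 2.41 and 2.03 in Senp2-aKO samples, of which 3 lay above all controls. Its log2 fold change was 0.25 (95% interval -0.06 to 0.57, limma adjusted p = 0.242). Klf11 levels were -2.31, -2.32, -2.32 and -2.18 in controls and -2.29, -2.19, -1.96 and -2.02 in Senp2-aKO samples. Senp2-aKO 3 and 4 lay above all controls, and the log2 fold change was 0.17 (95% interval -0.06 to 0.40, adjusted p = 0.278).

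Deviations from the group means were compared over the 45 pairs of the 10 genes, as a description across 8 arrays that share their scaling. Pearson correlations ran from -0.83 to 0.80 with a median of 0.03, and 26 pairs were above 0, so the genes did not vary as 1 block. Klf4 and Klf6 were most alike (0.80), followed by Klf11 with Klf13 (0.77) and Klf3 with Klf13 (0.72). Klf4 with Klf15 (-0.83), and Klf2 with Klf13 and with Klf6 (-0.69 each), were most opposed. Senp2-aKO 3 lies at an end of its group for both genes in each of these pairs.

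Levels over the 8 arrays were compared by Pearson correlation, with the group difference left in. The genes most like Klf5 were Itgb7, an integrin chain of lymphocytes (0.98), and the zinc finger gene Zfp747 (0.98). Both rose (log2 fold changes 1.31 and 0.48), which selection for likeness to a gene with groups apart already favours. The genes named here are the best of all tested, and how high such correlations run by chance was not tested. Most like Klf15 were Sfxn1, a mitochondrial serine transporter (0.98), and Fam219a (0.98), with log2 fold changes of 0.72 and 0.53 that did not pass. Rapgef2 (0.99) and Strn3 (0.98) were most like Klf6, with log2 fold changes of -0.41 and -0.38 that did not pass. Klf4 was most like Slc20a1, a phosphate transporter (0.98), and Tnfrsf10b, a death receptor (0.97). Klf7 was most like H2bu2 (0.99) and Zup1 (0.98), Klf3 like Pxn and Nfatc1 (0.96 each), and Klf11 like Fbxl16 and Hic2 (0.96 each). For Klf13 they were Phf13 (0.95) and Kcnk5 (0.94), for Klf10 Dio3 (0.93) and Gm4884 (0.92), and for Klf2 Wdr81 and Stard5 (0.92 each). None of the genes named for these 7 passed the limma test.

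**Figure D3:**
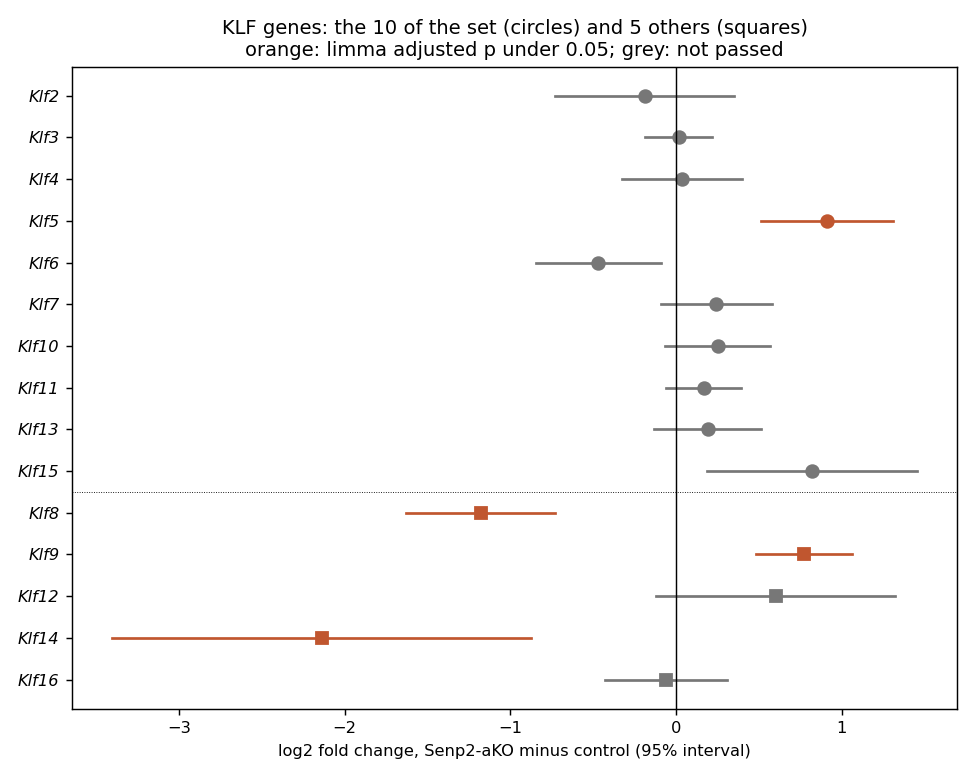
Log2 fold change, Senp2-aKO minus control, with its 95% interval for the 10 KLF genes (circles) and 5 further KLF genes (squares); orange marks genes that passed the limma test. Klf5 passed among the circles, and Klf8, Klf9 and Klf14 among the squares, with Klf14 lowest at -2.14.

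Of 7 further KLF genes 5 were tested, of which Klf9 rose and Klf8 and Klf14 fell, while Klf12 and Klf16 did not pass (log2 fold changes 0.60 and -0.06). Over all genes tested, 7.3% rose and 7.12% fell. Klf1, the erythroid factor, and Klf17 were above background on 0 arrays. Klf9, a glucocorticoid-induced factor, had levels of 3.56, 3.83, 3.40 and 3.84 in controls and 4.50, 4.39, 4.55 and 4.29 in Senp2-aKO samples. The rise was 1.71-fold, with a 95% interval of 1.40 to 2.09 and a limma adjusted p of 0.0102 (n = 4 per group). Klf14, an imprinted factor linked to fat distribution and insulin sensitivity, had levels of 1.05, 0.73, 1.48 and 0.28 in controls and -1.08, -2.96, -0.41 and -0.57 in Senp2-aKO samples. It fell 4.40-fold (95% interval 1.83 to 10.6, adjusted p = 0.0379), lowest on Senp2-aKO 2. Klf8, a repressor that binds CtBP, fell 2.26-fold (95% interval 1.66 to 3.09, adjusted p = 0.0106), from -2.02 to -1.45 in controls to -3.18 to -2.57 in Senp2-aKO samples. This probe was dim, and normexp gave a log2 fold change of -0.55 against -1.18 (adjusted p = 0.0170). The groups of all 3 were apart, as were those of 26.3% of all genes. Calls of Klf8 and Klf9 held in all 8 omissions of an array, whereas that of Klf14 held only without Senp2-aKO 2 or Senp2-aKO 3 (adjusted p from 0.0541 to 0.0998 in the other 6). Omitting the background filter ended it too (adjusted p = 0.0620).

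The SP factors share the zinc finger type and the GC box with the KLF genes. Of 9, 6 were tested and 0 passed in limma (1 higher at an unadjusted p under 0.05), with log2 fold changes from -0.25 for Sp2 to 0.57 for Sp4. Of 14 KLF cofactors and ubiquitin ligases 0 passed in limma (2 lower at an unadjusted p under 0.05), also when any single array was left out. Over all genes 14.4% passed. The mean of this list ran from 1.171 to 1.277 in controls and from 1.035 to 1.166 in Senp2-aKO samples, without overlap, and its median log2 fold change was -0.11. Ctbp2, the corepressor of Klf3, was nearest (-0.30, SE 0.10, adjusted p = 0.0833), and under quantile normalisation, normexp or array weights 1 gene of this list was lower, and with the B lymphocyte covariate 2 were.

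Genes that KLF factors are known to act on or with in fat cell formation moved in part. Of 13 tested, 3 rose and 1 fell, where 7.3% of all genes rose and 7.12% fell. Cebpd, which with Cebpb switches on Klf5, rose by 1.32 (SE 0.15, limma adjusted p = 0.00400) on the log2 scale. Cebpb rose by 0.79 (SE 0.19, adjusted p = 0.0332), and Dlk1, the progenitor gene that Klf6 represses, by 1.08 (SE 0.17, adjusted p = 0.00951). Zfp423, a regulator of preadipocyte commitment, fell by 0.72 (SE 0.19, adjusted p = 0.0419). Pparg, the target of Klf5 and Klf2, was below all controls on every Senp2-aKO array but did not pass (-0.55, SE 0.18, limma adjusted p = 0.0718). Slc2a4, the target of Klf15, did not pass either (0.28, SE 0.16, adjusted p = 0.268). The Cebpb call ended without control 1, 3 or 4 or Senp2-aKO 3 or 4 (adjusted p from 0.0605 to 0.0892). That of Zfp423 ended without any array but Senp2-aKO 2 or 3 (0.0645 to 0.109). Both also ended with no background filter. Under quantile normalisation, normexp or array weights 3 genes of this list fell.

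Of 12 amino acid and fasting genes linked to Klf15, 3 rose (7.3% of all genes) and 0 fell (7.12% of all), also 0 at an unadjusted p under 0.05. They were the muscle ubiquitin ligase genes Trim63 and Fbxo32 (log2 fold changes 6.48 and 1.0, limma adjusted p = 0.00369 and 0.00774) and Gpt2, an alanine aminotransferase (0.67, adjusted p = 0.0391). Trim63 was above background on 6 of 8 arrays and had a control mean of -5.11 (SD 1.37), near the lowest signals detected, so that the size of its difference is uncertain. Normexp gave 3.88 for it. Genes of amino acid breakdown such as Bcat2 and Prodh did not pass (0.37 and 0.53). The muscle marker mean was higher on the same 4 arrays (2.75 to 4.29, against -2.04 to 1.18 in controls). With that mean as a covariate, the log2 fold changes were 3.05 for Trim63 and 0.82 for Fbxo32 (limma adjusted p = 0.290 and 0.415). Because the mean does not overlap between the groups, this fit cannot part muscle RNA from genotype. The part of muscle RNA in Trim63 and Fbxo32 was not tested in another way. The Gpt2 call held only without Senp2-aKO 3 (adjusted p = 0.0212, against 0.0541 to 0.0862 in the other omissions), and it ended with no background filter. Array weights gave 5 risen genes.

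Genes linked to Klf2 and Klf4 in endothelium and lymphocytes did not pass in limma (0 of 8, 1 higher at an unadjusted p under 0.05), with Nos3 nearest (0.46, SE 0.15, adjusted p = 0.0712); 1 rose without Senp2-aKO 2, without Senp2-aKO 3, under quantile normalisation, with array weights and with the B lymphocyte covariate. Among 9 TGF-β genes linked to Klf6, Klf10 and Klf11, 3 rose (7.3% of all genes) and 2 fell (7.12% of all). Tgfbr2, the type II receptor, and Smad3 rose by 0.55 and 0.85 on the log2 scale (adjusted p = 0.0101 and 0.0140), and the cell cycle inhibitor Cdkn1a by 0.96 (adjusted p = 0.0260). Smad7, the inhibitory SMAD that Klf10 is known to repress, fell by 0.78 (SE 0.21, adjusted p = 0.0406), and Smad2 by 0.37 (adjusted p = 0.0432). On omission of any 1 control, of Senp2-aKO 1 or 4, or of the background filter, 0 genes of this list fell. The Cdkn1a call ended without control 1, 3 or 4 or Senp2-aKO 4 (adjusted p from 0.0607 to 0.0737).

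Several KLF genes are themselves early response, clock or glucocorticoid-induced genes, and these programmes were read on the same arrays. Of 18 immediate early genes tested, Fosl2 and Myc rose (log2 fold changes 0.76 and 1.29, limma adjusted p = 0.0338 and 0.0335) and 0 fell (6 lower at an unadjusted p under 0.05), with a median of -0.87. Over all genes tested, 7.3% rose and 7.12% fell. Egr2, which works with Klf4, did not pass (-1.97, SE 0.55, adjusted p = 0.0504). The Fosl2 call held in omissions of control 2 and Senp2-aKO 1 (adjusted p from 0.0517 to 0.0911 in the other 6), and that of Myc in those of Senp2-aKO 1 and Senp2-aKO 3 (0.0527 to 0.0885). With no background filter 0 rose. The number that fell was 4 under quantile normalisation, normexp, the stricter filter or the trended robust variance, and 3 with array weights. It was 2 with the B lymphocyte covariate, 5 without Senp2-aKO 3 and 3 without control 4.

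Glucocorticoid-responsive genes rose for 8 of 12 (7.3% of all genes), with 0 lower, also at an unadjusted p under 0.05, and a median log2 fold change of 0.98. The number that rose was 6 without control 1 or control 3, and 7 without control 4, Senp2-aKO 1 or Senp2-aKO 4. Fkbp5, a glucocorticoid-induced immunophilin gene, rose by 2.53 (SE 0.35, limma adjusted p = 0.00640) and Pdk4, the kinase that shuts off pyruvate oxidation, by 2.21 (SE 0.23, adjusted p = 0.00369). Cebpd, already given above, is 1 of the 8 that rose. Per1, Sgk1, Errfi1 and Dusp1 did not pass (log2 fold changes 0.17, 0.16, 0.57 and -0.46, limma adjusted p from 0.284 to 0.729). Klf9 belongs to this list, while Klf15, also a known glucocorticoid-induced gene, gave the 0.82 above. Of 16 clock genes tested 2 rose, against 7.3% of all genes. These were Ciart (1.67, SE 0.38, limma adjusted p = 0.0249, and 1.03 under normexp) and Cry2 (0.32, SE 0.09, adjusted p = 0.0449). On omission of any 1 control or of Senp2-aKO 1, 0 clock genes rose, and 1 rose with no background filter. The number was 4 under normexp and 5 under the stricter filter, the trended robust variance or array weights.

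**Figure D4:**
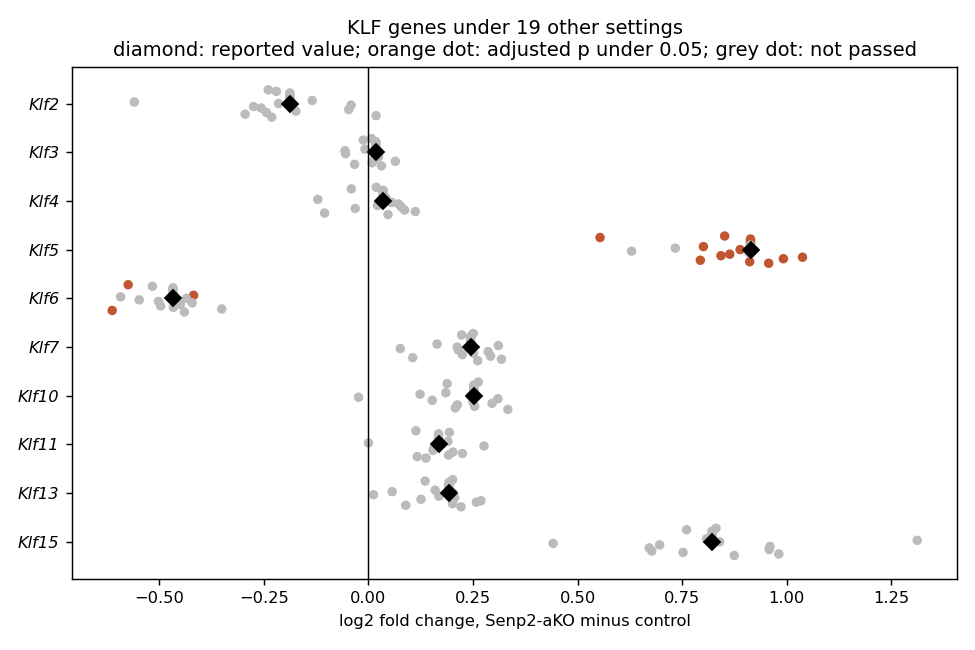
Log2 fold change of each of the 10 KLF genes, Senp2-aKO minus control, as reported (diamond) and under 19 other settings (dots, orange where the adjusted p was under 0.05). Klf5 stays between 0.55 and 1.04 and Klf15 between 0.44 and 1.31, Klf6 stays below 0, and dots of Klf2, Klf3, Klf4, Klf10 and Klf11 lie on both sides of 0, for Klf11 by less than 0.01.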

How the data were processed

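Per the file headers, scanner images went through Agilent Feature Extraction (version 11.5.1 in the submitters' processing notes), with background subtraction and detrending within an array. Intensity values were read from the deposited columns of processed signals, spot medians and local background medians, and the deposited spot flags are of the unit other (0 or 1). The 8 columns of a deposited normalised matrix were not used here, since their names match no label. Processed signals were taken as log2 relative to the 75th percentile of each array, and spots of a probe were averaged without outlier flags. Probes well above background on at least 4 of 8 arrays were kept, and the probe with the highest mean stood for a gene. Names came through RefSeq accessions (GRCm38.p6 table) for 27656 of 55681 probes. The group difference was fitted in R 4.3.3 using limma 3.58.1, with Benjamini-Hochberg adjustment over all 14739 genes, and a second fit over all 30519 kept probes. The test was also run on simulated data, drawn independently for each gene from the control means and spreads. Such data lack shared variation between genes and differences in tissue make-up, so they do not bear on the calls above.

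Genes named are the 10 KLF genes, Senp2, up to 4 genes of each list that passed, and the 2 genes most like each KLF gene by correlation; others named, such as Smad2, were chosen after their values were seen. The members and lists were chosen with earlier results of these data known. Marker lists for macrophages, smooth muscle, progenitors, keratinocytes, T lymphocytes and beige adipocytes were read too. Alternatives were quantile normalisation, normexp (offset 50, on median signals), other filters, the mean of probes, a trended robust variance, the replicate number as block, array weights, marker means as covariates, and omission of each array. With 4 arrays per group, their number limits the precision.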

Additional observations from a re-analysis of the deposited data

Results flagged for a closer look

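In 48 groups of 4 values (the 10 KLF genes, Klf8, Klf9, Klf14 and 11 marker means, in each genotype), 4 held a sample far from the other 3, at a gap above 0.829 of the range, where chance gives about 5% of groups. Klf11 was at -2.18 on control 4, against -2.32 to -2.31 on the other controls. The B lymphocyte marker mean was at 1.44 on Senp2-aKO 2, against -3.00 to -2.62 on the other knockout arrays. The mammary epithelium marker mean was at -2.80 on Senp2-aKO 4, against -1.53 to -1.29. The macrophage marker mean was at 3.13 on Senp2-aKO 1, against 2.93 to 2.95.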

How the results depend on the processing

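Counts for all genes, 1076 higher and 1049 lower, ran from 434 to 1359 higher and from 280 to 1472 lower when 1 array was left out; array weights gave 1836 and 1933, the muscle covariate 1 and 0, and the epithelial covariate 0 and 0. Lower genes numbered 689 with no background filter, 567 with the replicate block and 1705 with the B lymphocyte covariate. The count of risen KLF genes, 1, was 0 with the replicate block (Klf5 adjusted p = 0.0509), the muscle covariate or the epithelial covariate, and 0 to 1 on leaving out 1 array. The count of fallen ones, 0, was 1 under quantile normalisation and array weights and 0 to 1 on leaving out 1 array, and that gene was Klf6. Adjusted over all probes, the risen count of 1 was 0 with the block or either covariate, and both counts ran from 0 to 1 on leaving out 1 array. Replicate numbers did not pair the samples: deviations correlated at -0.02, -0.08, 0.14 and 0.11, and 3 of 8 samples correlated best with their own number. With the replicate block the calls of Klf14 (adjusted p = 0.0514), Cebpb (0.0925), Zfp423 (0.0797), Cdkn1a (0.0694), Smad7 (0.0798), Myc (0.0698), Fosl2 (0.0695) and Cry2 (0.127) also ended, and 0 TGF-β genes fell and 0 immediate early genes rose.

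Signs turned for Klf3 under normexp (-0.0125), array weights (-0.00837), the muscle covariate (-0.0560) and the epithelial covariate (-0.0549), and on leaving out 1 array its range was -0.0333 to 0.0642. For Klf4 they turned under normexp (-0.0410) and the muscle covariate (-0.121), with a range of -0.105 to 0.112 on leaving out 1 array. Klf2 ran from -0.295 to 0.0183 and Klf16 from -0.222 to 0.0042 on leaving out 1 array. Klf10 was at -0.0238 with the epithelial covariate, and Klf11 at -3.49e-05 and Klf12 at -0.0913 with the muscle covariate. The cause was not tested.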

Other observations

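Adipose progenitor markers stood apart between the groups, with means of 1.62 to 2.0 in controls and 2.40 to 2.62 in Senp2-aKO samples. Of 8 tested, 3 rose, namely Ly6a (log2 fold change 0.97, SE 0.12, limma adjusted p = 0.00512), Dpp4 (1.23, SE 0.20, adjusted p = 0.0104) and Dlk1, all surface or secreted proteins of fat cell precursors. The mean of smooth muscle and pericyte markers lay lower, at 2.57 to 2.80 in controls and 2.01 to 2.48 in Senp2-aKO samples. Of 8 tested, 2 fell, Pdgfrb (-0.71, SE 0.13, limma adjusted p = 0.0132) and Notch3 (-0.78, SE 0.19, adjusted p = 0.0296). Acta2 and Rgs5 were below all controls on every Senp2-aKO array but did not pass (-0.73 and -0.70). Myh11, Tagln and Cspg4 overlapped between the groups (-0.39, -0.08 and -0.23), as did Cnn1, which was above 0 (0.40). Beige adipocyte markers had means of 0.45 to 1.03 in controls and 2.81 to 3.89 in Senp2-aKO samples, with 8 of 10 higher. Keratinocyte markers had means of -1.99 to -1.65 and -1.45 to -1.34, and 2 of 5 rose, Krt5 and Krt14, which are also in the mammary epithelium list. Of the others, Trp63 was lower on every Senp2-aKO array but did not pass (-0.25, limma adjusted p = 0.0917). Krt10 and Lor overlapped between the groups (0.07 and 0.20), and Krt1, Ivl and Dsg1a were above background on 0 arrays. T lymphocyte markers had 0 of 10 called in limma, also 0 at an unadjusted p under 0.05, and macrophage markers 1 of 9 higher. Over all genes tested, 7.3% were called higher and 7.12% lower.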
